A study of Mus musculus with 12 samples.

Results

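Smarca2 and 9 other genes of the BAF chromatin remodeling complex (Smarca4, Smarcb1, Smarcc1, Smarcc2, Smarcd1, Arid1a, Arid1b, Actl6b and Pbrm1) were followed through 12 RNA-seq libraries of mouse somatosensory cortex. These 10 genes were found by symbol among 24452 and held 16 of the 35840 RefSeq transcripts. All 16 transcripts and all 10 genes passed the filter on low counts, which kept 21715 transcripts and 14739 genes. Smarca2 was chosen on the differences between the WT saline libraries and the WT ethanol and p53 KO saline libraries, so its values are a description and carry no test. The other 9 genes were taken for their place in the complex and were tested.

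The mice were male C57BL/6 pups on postnatal day 7 (P7). The 4 groups, each of 3 libraries, were wild-type (WT) mice given saline, WT mice given ethanol (EtOH), p53 knockout (p53 KO) mice given saline and p53 KO mice given EtOH. All pups received intraperitoneal injections, and the brains were taken 8 h after the last of them. The p53 KO mice carried the targeted Trp53tm1Tyj disruption in every cell, and both genotypes were offspring of heterozygous parents. Part of the cortex was laser-dissected and the rest was punched from frozen brain, and the labels do not say which library is which.

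The BAF complex, the mammalian form of SWI/SNF, uses the energy of ATP to slide or evict nucleosomes and so sets which DNA is open. Either of a pair of ATPases, Smarca2 (BRM) or Smarca4 (BRG1), drives it, and the scaffold and DNA-contacting subunits around the motor define its variants. In the developing brain its composition changes as progenitors become neurons, when Actl6b (BAF53b) takes the place of Actl6a.

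Mouse Smarca2 was represented by a pair of transcripts that overlap at their 3′ ends on chromosome 19 (mm10, plus strand). The long transcript, NM_011416, ran from 26605160 to 26778321, and the short transcript, NM_026003, ran from 26748403 to the same end, so that their starts lay 143243 bases apart. In the GENCODE models matched to them the long transcript had 33 exons and 5921 bases, of which 27 exons and 4232 bases were its own. The short one had 9 exons and 1962 bases, and 1689 of these bases (86.1%), in 6 exons, were also in the long transcript. The long model codes for 1583 residues, with the ATPase domain, and the short one for 236 residues, with the bromodomain end of the protein. Only 273 bases belonged to the short transcript alone, so most reads from it could have come from either.

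The place where the shared part begins is shown here because the division of reads between the transcripts turns on it. The first 60 bases, in lower case, are the end of exon 27, found only in the long transcript, and the 60 bases in capitals are the start of exon 28, which is exon 4 of the short transcript. All of them are coding in the long transcript, and the start codon of the short one is at base 28 of the capitals.
Smarca2 exon 27 to 28: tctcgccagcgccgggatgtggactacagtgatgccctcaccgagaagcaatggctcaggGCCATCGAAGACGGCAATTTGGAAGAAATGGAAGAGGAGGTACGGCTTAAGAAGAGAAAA

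The long Smarca2 transcript was low in the WT saline libraries and high in the other 9. Its levels, in counts-per-million (CPM) scaled by edgeR's TMM factors, were 13.3, 3.78 and 6.38 for the WT saline libraries and 84.4, 60.9 and 88.3 for those of WT ethanol. The p53 KO saline libraries held 95.6, 86.4 and 64.7 CPM, and those of p53 KO ethanol 42.6, 56.5 and 49.3 CPM. No WT saline library reached the range of another group, and the p53 KO ethanol libraries lay below all WT ethanol and p53 KO saline libraries. In order of the mean the groups were p53 KO saline, WT ethanol, p53 KO ethanol and WT saline, and of these neighbours only the first pair overlapped.

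The short transcript did not follow the long one. The WT saline libraries held 192, 142 and 56.5 CPM of it, the WT ethanol libraries 53.5, 76.8 and 78.4 CPM, the p53 KO saline libraries 60.2, 75.3 and 65.5 CPM and the p53 KO ethanol libraries 91.8, 73.3 and 69.7 CPM. The WT saline libraries spread widely here, from the highest values down to that of replicate 3, which lay inside the range of the other groups. The sum of both transcripts averaged 137 ± 73.1 CPM for WT saline, 148 ± 17.4 CPM for WT ethanol, 150 ± 17.1 CPM for p53 KO saline and 129 ± 8.67 CPM for p53 KO ethanol (SD, n = 3 per group), and all 4 groups overlapped. The fitted log2 fold changes of the sum were 0.12 with a standard error (SE) of 0.39 for WT ethanol against WT saline and 0.14 (SE 0.39) for p53 KO saline against WT saline, and without WT saline replicate 3 they were −0.23 and −0.21. Those of the long transcript were 3.38 and 3.46, and those of the short transcript −0.90 and −0.96. The 2 comparisons share their WT saline libraries, so they are not independent of each other.

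**Figure D1:**
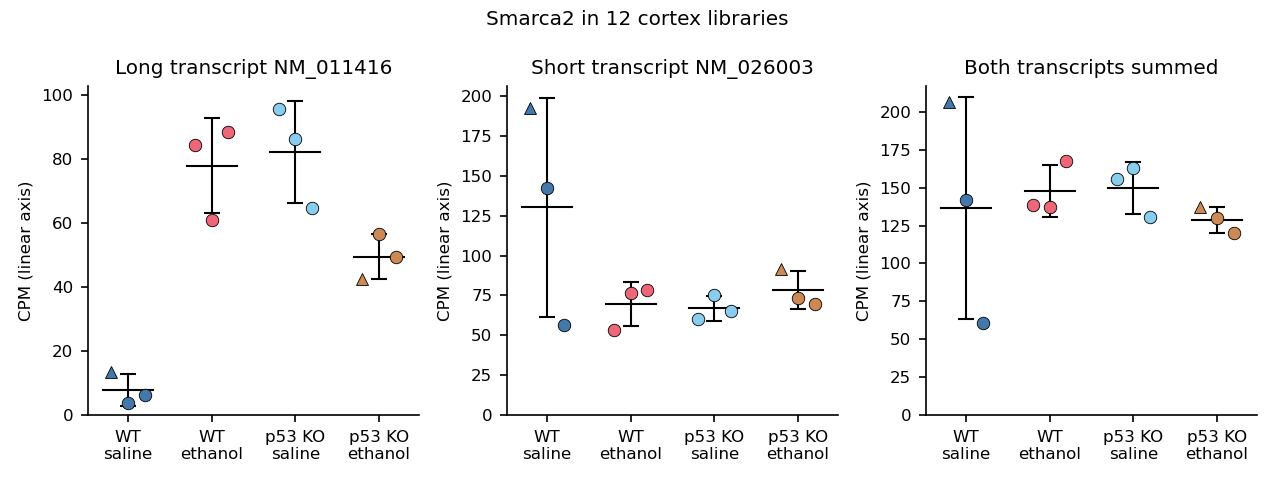
Level of the long Smarca2 transcript, the short one and their sum (y axis, CPM) in each library of the 4 groups (x axis). Points are libraries, triangles the 2 libraries whose titles open with L, horizontal lines the means and bars the SD (n = 3). The WT saline libraries are between 3.78 and 13.3 CPM for the long transcript, below all others, while the sums overlap.

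Among the comparisons without WT saline, the long transcript was lower in p53 KO ethanol than in p53 KO saline by a log2 fold change of −0.72 and lower than in WT ethanol by −0.65. The interaction, which is the ethanol effect of the p53 KO mice less the one of the WT mice, came to −4.10 for the long transcript, 1.12 for the short one and −0.34 for the sum, all on the log2 scale. The sum thus held no difference of the size seen in the long transcript.

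Expressed per length, as the deposited RPKM values, the long transcript was at 0.74 to 2.28 in WT saline and at 7.30 to 15.0 in the other 9 libraries. The short transcript was at 21.6 to 84.7 RPKM in WT saline and at 27.6 to 38.0 elsewhere, so that in all 12 libraries it was the more abundant of the pair per length.

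The same pattern was seen as a share of the gene's count, which needs no library size. NM_011416 took 6.37%, 2.54% and 10.1% of the Smarca2 count in WT saline and 61.2%, 44.2% and 52.98% in WT ethanol. It took 61.4%, 53.5% and 49.7% in p53 KO saline and 31.3%, 43.5% and 41.5% in p53 KO ethanol. The WT saline shares lay below all others. The widest 95% Wilson interval, 22.6% to 42.4%, belonged to p53 KO ethanol replicate 1, where both transcripts together had 82 counts, and in WT saline the intervals ran from 1.68% to 12.4%. These intervals cover counting error only, and reads shared by both transcripts were divided by the authors' software, which they do not reflect.

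The other 3 genes with several transcripts are built otherwise, as the transcripts of each start and end at the same places and are closer in length. Their shares therefore cannot show whether a division like that of Smarca2 is particular to it. Smarca4 NM_001174078 held 31.6% to 68.6% of its gene's count in WT saline and 48.2% to 79.9% in the other 9 libraries. Smarcc2 NM_001114096 held 22.5% to 46.5% in WT saline and 16.2% to 65.2% elsewhere, and Smarcb1 NM_011418 held 61.3% to 84.7% and 69.2% to 92.6%. In these genes the WT saline range overlapped that of the other groups.

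The division was also described for all transcript pairs of a gene built like that of Smarca2, a class drawn up after the Smarca2 values were seen. It held 165 pairs of 88 genes that share their 3′ end, with a short transcript of at most 0.5 of the length of the long one and at least 20 counts in every library. The long transcript's share was lower in all WT saline libraries than in all other libraries in 18 pairs and higher in 2. The median shift of WT saline from the other libraries was −5.07 percentage points, and the −42.5 points of Smarca2 ranked 6 by size. In 110 pairs of 84 genes that share their 5′ end instead, 0 pairs were lower, 2 were higher and the median shift was −0.34 points. The median share of the long transcript over the 165 pairs was lowest in WT saline replicate 1 (10.0%), p53 KO ethanol replicate 1 (19.9%) and WT saline replicate 2 (21.5%). In WT saline replicate 3 it was 29.7%, above the 28.5% of WT ethanol replicate 2, so by these medians WT saline overlapped the other groups. Smarca2 was chosen for its difference from WT saline, so its clearer gap beside the medians was set by that choice.

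**Figure D2:**
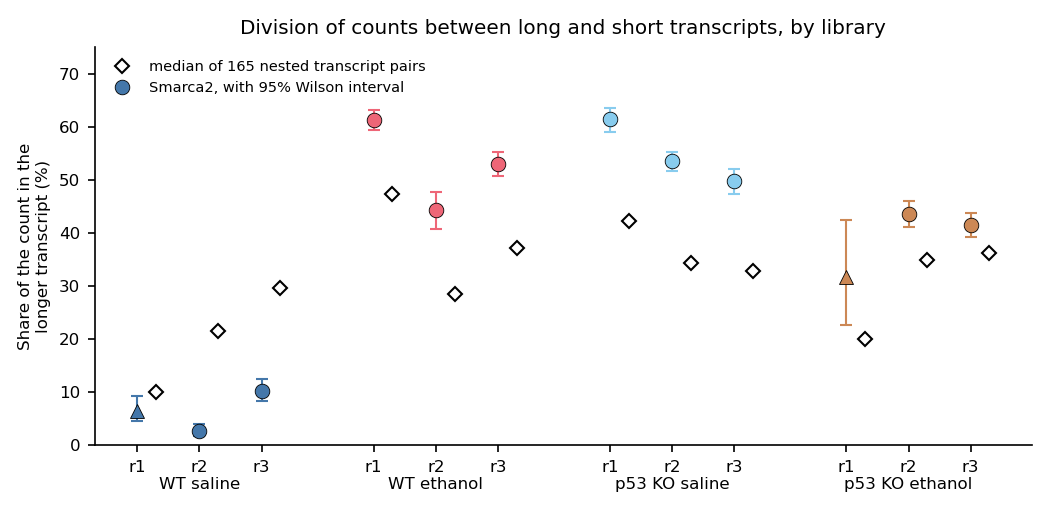
Share of the gene's count in the longer transcript (y axis, percent) in each of the 12 libraries (x axis, replicates r1 to r3 of each group). Coloured points are Smarca2 with 95% Wilson intervals, triangles being the 2 libraries whose titles open with L, and white diamonds are the median of 165 nested transcript pairs. Smarca2 is at 2.54% to 10.1% in WT saline and at 31.3% to 61.4% elsewhere.

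Library-wide features also differed between libraries, though not wholly by group, and their part in the Smarca2 values was not tested. Total counts ran from 5.06 M to 17.1 M, except in WT saline replicate 1 (1.95 M) and p53 KO ethanol replicate 1 (0.72 M), the 2 libraries whose titles open with L. Transcripts of 5000 bases and over took 17.2%, 8.13% and 11.4% of the count in WT saline, 10.3% in p53 KO ethanol replicate 1 and 18.0% to 23.5% in the remaining 8 libraries. The median log2 fold change of WT ethanol against WT saline was −0.94 for 2158 transcripts under 1500 bases and 0.50 for 3084 transcripts of 5000 bases and over. Fold changes against WT saline therefore moved with transcript length across the whole table, but single libraries did not divide by group. The log2 CPM of WT saline replicate 1 deviated from the mean over libraries by medians of 0.06 and −0.09 in these 2 length classes. In p53 KO ethanol replicate 1 the medians were 0.69 and −0.61. With each library's trend in length removed the long Smarca2 transcript differed by 2.68 in WT ethanol and 2.67 in p53 KO saline.

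The labelled tissue held its markers, with 8 of 8 neuron markers and 8 of 8 cortical identity genes above 0 in all 12 libraries. Red blood cell genes (5 of 5 detected) summed to 336 to 743 CPM in WT saline, 56.6 to 144 in WT ethanol, 41.9 to 112 in p53 KO saline and 34.9 to 636 in p53 KO ethanol, and all 5 were lower in both groups compared with WT saline. Markers of choroid plexus, striatum and other neighbouring regions (7 detected, with Ttr, Folr1, Drd2 and Prox1 at 0 in some libraries) summed to 56.4 to 173 CPM in WT saline, 269 to 6334 in WT ethanol, 67.3 to 2557 in p53 KO saline and 106 to 2956 in p53 KO ethanol. Of the 7, 5 were higher in WT ethanol than in WT saline and 0 were called in p53 KO saline. Among the 3 of smallest p in WT ethanol, Prox1 rested mainly on replicate 1, at 68.7, 1.58 and 3.06 TMM-scaled CPM in replicates 1 to 3. Ppp1r1b was at 26.2, 461 and 190 and Drd2 at 7.30, 15.3 and 5.19. The WT saline libraries reached at most 2.02, 49.2 and 1.49 CPM for Prox1, Ppp1r1b and Drd2. Of the neuron markers 2 were higher and 1 lower in WT ethanol than in WT saline, of the microglia markers 2 of 7 were lower, and of the endothelial and of the dividing progenitor markers 1 was higher. The progenitor marker was Eomes, at 55.9 TMM-scaled CPM in WT ethanol replicate 1 and at 0 and 0.56 in replicates 2 and 3. No astrocyte, oligodendrocyte lineage or cortical identity marker was called in that comparison. In p53 KO saline against WT saline, 3 of 7 microglia markers and 1 of 8 neuron markers were lower, 2 of 7 dividing progenitor markers and 1 of 8 oligodendrocyte lineage markers were higher, and no astrocyte, endothelial or cortical identity marker was called. These calls are at an unadjusted p under 0.05 by edgeR, at which 18.3% and 19.6% of all genes tested were called. Trp53 was counted in every library (14 to 453 counts), but whole-transcript counts include parts outside the disruption and do not check the genotype labels.

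Smarca4, the alternative ATPase, held 230, 25.4 and 52.4 CPM in the WT saline libraries and 97.1 to 169 CPM in the other 9. WT saline replicate 1 was the highest of the 12 and the remaining WT saline libraries were the lowest. The log2 fold change was 0.22 (SE 0.58) in WT ethanol and 0.42 (SE 0.58) in p53 KO saline against WT saline, with edgeR adjusted p = 0.863 and 0.710. The log2 ratio of the Smarca2 to the Smarca4 count was −0.15, 2.49 and 0.21 over the WT saline libraries and −0.30 to 0.79 over the others. Only WT saline replicate 2 fell outside the range of the others.

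Smarcc1 (BAF155), a core scaffold subunit, rose in both groups compared with WT saline at the unadjusted level. The WT saline libraries held 41.1, 16.4 and 19.6 CPM and the WT ethanol libraries 73.4, 45.3 and 55.9 CPM. The p53 KO saline libraries held 65.2, 63.5 and 42.0 CPM and the p53 KO ethanol libraries 23.4, 42.8 and 35.5 CPM. All WT saline libraries were below all WT ethanol and p53 KO saline libraries, and all p53 KO ethanol libraries were below all WT ethanol libraries. The log2 fold change was 1.20 (SE 0.41) in WT ethanol and 1.17 (SE 0.41) in p53 KO saline, a rise of 2.30-fold and 2.25-fold, with edgeR adjusted p = 0.208 and 0.179. Its interaction was −1.92 (SE 0.57, edgeR adjusted p = 0.25). In p53 KO mice the ethanol libraries differed from saline by −0.71 (SE 0.40, edgeR adjusted p = 0.999). Per gene the 3 calls held at the unadjusted level in each of the 12 fits that left out 1 library. Per transcript, where Smarcc1 has the same counts in NM_009211, both calls against WT saline were lost without WT saline replicate 2 (0.93 and 0.91) or replicate 3 (0.99 and 0.97), the one in WT ethanol without WT ethanol replicate 1 (0.98) and the one in p53 KO saline without p53 KO saline replicate 1 (1.03). None of the 3 held with the length trend removed, where the values were 0.62, 0.54 and −0.94.

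Smarcc2 (BAF170), the scaffold partner that replaces or pairs with Smarcc1, was at 312, 47.6 and 65.9 CPM in WT saline and 129 to 299 CPM elsewhere. As for Smarca4, WT saline replicate 1 was above and replicates 2 and 3 were below all other libraries. Its sum did not pass the test in any of the 5 comparisons. Of its 3 transcripts, NM_001114096 was at 70.1, 13.0 and 31.8 CPM in the WT saline libraries, at 144, 89.5 and 72.1 CPM after ethanol and at 127, 101 and 146 CPM in p53 KO saline. It rose by 1.43 (SE 0.66) and 1.72 (SE 0.66) on the log2 scale, with edgeR adjusted p = 0.268 and 0.196, and neither call held without WT saline replicate 2 or without WT saline replicate 3. The transcripts of Smarcc2 overlap along most of their length, so their separate values rest on how shared reads were divided.

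Actl6b, the actin-like subunit of neuronal BAF, ran the other way. The WT saline libraries held 173, 142 and 155 CPM and the WT ethanol libraries 70.4, 105 and 119 CPM. The p53 KO saline libraries held 91.3, 77.7 and 135 CPM and the p53 KO ethanol libraries 150, 128 and 123 CPM. The WT saline libraries were all above the WT ethanol and p53 KO saline libraries, and the p53 KO ethanol libraries were above those of WT ethanol. The share of all genes whose groups separate in this way is not given, here or for Smarcc1 and Pbrm1. The log2 fold change was −0.68 (SE 0.33) in WT ethanol and −0.63 (SE 0.33) in p53 KO saline, neither past the test (edgeR adjusted p = 0.287 and 0.296), though both passed the unadjusted level without p53 KO saline replicate 3 (−0.70 and −0.92). The interaction was 1.08 (SE 0.46), past the unadjusted level only (edgeR adjusted p = 0.305). That call was lost, at 0.91 to 1.15, without WT saline replicate 3, WT ethanol replicate 1, p53 KO saline replicate 1 or 2 or p53 KO ethanol replicate 1 or 2. With 1592 bases, Actl6b had the shortest transcript of the 16.

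Arid1a and Arid1b, the large DNA-binding subunits of which a BAF particle holds either, did not pass the test in any comparison. Arid1a was at 77.1, 27.4 and 27.5 CPM in WT saline and 35.1 to 104 CPM elsewhere. Arid1b, with the longest transcript (11325 bases), was at 76.6, 27.4 and 17.1 CPM in WT saline and 46.5 to 62.9 CPM elsewhere. In both genes WT saline replicates 2 and 3 were below all other libraries and replicate 1 was not. Against WT saline the log2 fold changes of Arid1a were 0.75 (SE 0.45) in WT ethanol and 0.72 (SE 0.45) in p53 KO saline. Those of Arid1b were 0.42 and 0.40.

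Pbrm1 (BAF180), which marks the PBAF variant, was at 74.6, 52.4 and 30.7 CPM in WT saline and 26.7 to 99.97 CPM elsewhere, and its lowest value was in p53 KO ethanol replicate 1. All p53 KO ethanol libraries (26.7 to 63.2 CPM) were below all WT ethanol libraries (66.0 to 79.7 CPM). Smarcd1 (BAF60a), a linker to transcription factors, was at 123, 20.6 and 86.1 CPM in WT saline and 38.4 to 117 elsewhere. The core subunit Smarcb1 (BAF47) was at 110, 63.0 and 75.1 CPM in WT saline and 54.3 to 81.8 elsewhere. None of these 3 genes passed the test in any comparison.

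**Figure D3:**
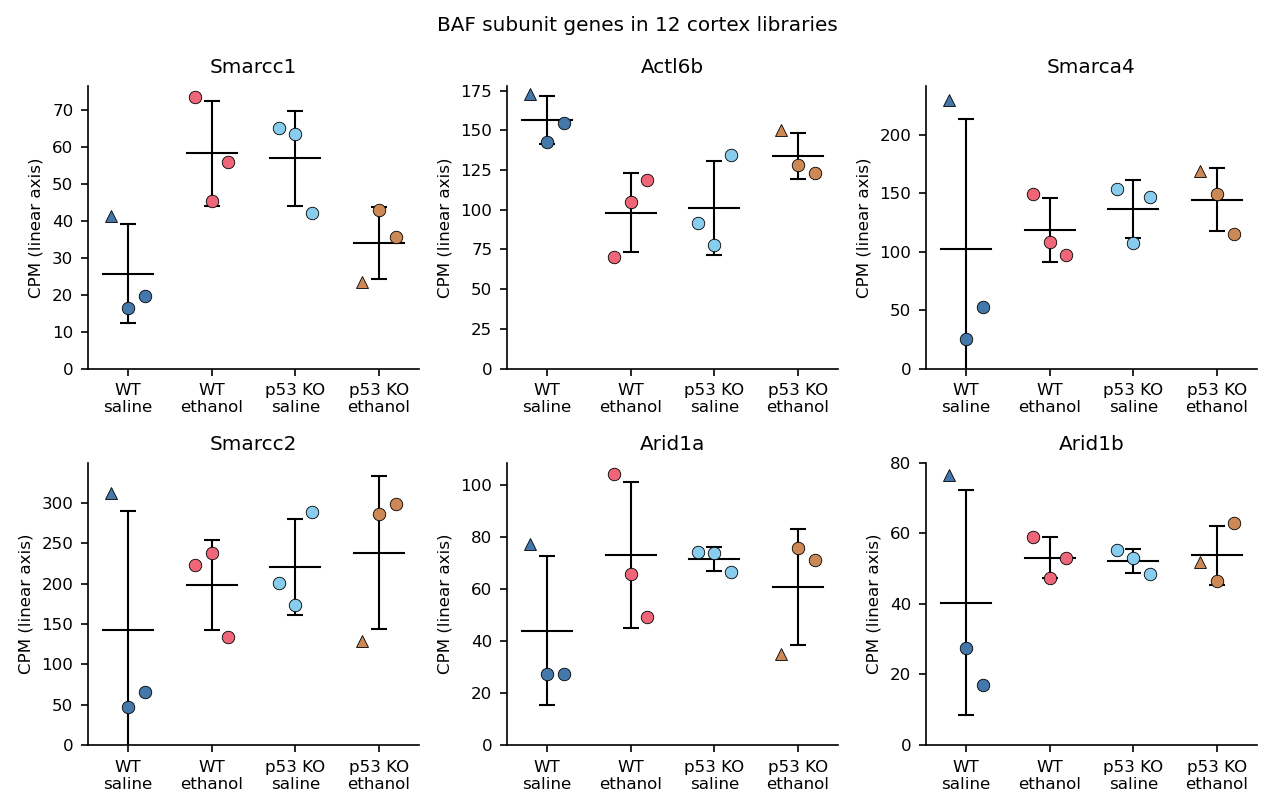
Level of 6 BAF genes with their transcripts summed (y axis, CPM) in each library of the 4 groups (x axis). Points are libraries, triangles the 2 libraries whose titles open with L, lines the means and bars the SD (n = 3), ending at 0 where they would pass below it. For Smarca4, Smarcc2, Arid1a and Arid1b the WT saline triangle (230, 312, 77.1 and 76.6 CPM) lies far above the other 2 WT saline libraries.

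Of the 9 genes other than Smarca2, 1 was called (unadjusted p under 0.05) in WT ethanol against WT saline, where 18.3% of all genes tested were, and 1 in p53 KO saline against WT saline, where 19.6% were. Both calls were Smarcc1, higher, beside 9.99% and 9.14% of all genes called higher. In the ethanol by genotype interaction 2 of 9 were called (Smarcc1 and Actl6b) against 15.2% of all genes. In p53 KO ethanol 0 of 9 were called against p53 KO saline (3.15% of all genes) and 0 of 9 against WT ethanol (3.24%), by edgeR and by DESeq2. None passed an adjusted p of 0.05, by edgeR or by DESeq2. The share of members called was near that of all genes.

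Per transcript, 2 of 14 were called in WT ethanol (18.2% of all transcripts) and 2 of 14 in p53 KO saline (19.1%), Smarcc1 NM_009211 and Smarcc2 NM_001114096 in each, both higher. The interaction was called for 2 of 14 (15.3%), Smarcc1 NM_009211 and Actl6b NM_031404. In p53 KO ethanol 0 of 14 were called against p53 KO saline (2.99% of all transcripts) and 0 of 14 against WT ethanol (3.29%), again by both tools. Without WT saline replicate 2, 0 of 14 transcripts were called in WT ethanol (11.8% of all transcripts) and in p53 KO saline (11.6%). Without WT saline replicate 3 it was also 0 of 14 in both (18.7% and 18.6%), and without WT ethanol replicate 1, 0 of 14 in WT ethanol (10.1%). The median log2 fold change of the 9 genes was 0.42 in WT ethanol and 0.42 in p53 KO saline, beside 0.06 and 0.04 over all genes. By sign, 7 of the 9 were positive in each, and the share of positive signs over all genes is not given. Over all transcripts of 5000 bases and over the medians were 0.50 and 0.60 in these comparisons.

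These counts depended on the 2 libraries whose titles open with L. Without them, which leaves 2 libraries in WT saline and 2 in p53 KO ethanol, 5 of 9 genes were called in WT ethanol (37.3% of all genes), namely Smarca4, Smarcc1, Smarcc2, Arid1a and Arid1b, all higher. The log2 fold changes ran from 1.17 for Arid1b to 1.73 for Smarcc2, with edgeR adjusted p between 0.0104 and 0.0238. In p53 KO saline these 5 and Pbrm1 were called (39.2% of all genes), from 0.88 for Pbrm1 to 1.90 for Smarcc2, and 5 of the 6 had an edgeR adjusted p below 0.05, Pbrm1 being at 0.0697. The same 6 genes were called in the interaction (21.4% of all genes), with none below an edgeR adjusted p of 0.05. With only WT saline replicate 1 left out, 5, 6 and 7 genes were called in these 3 comparisons, beside 31.7%, 33.6% and 23.6% of all genes. With the trend in transcript length removed from all 12 libraries, 0 of 9 genes and 0 of 14 transcripts were called in all 5 comparisons at the unadjusted level, and fewer of all features were called as well. Over all genes the share was then 13% in WT ethanol and 11.9% in p53 KO saline against WT saline, 1.21% in p53 KO ethanol against p53 KO saline, 2.42% against WT ethanol and 7.35% in the interaction. Over all transcripts it was 14.2%, 13.6%, 2.18%, 3.06% and 10.3% in the same order.

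**Figure D4:**
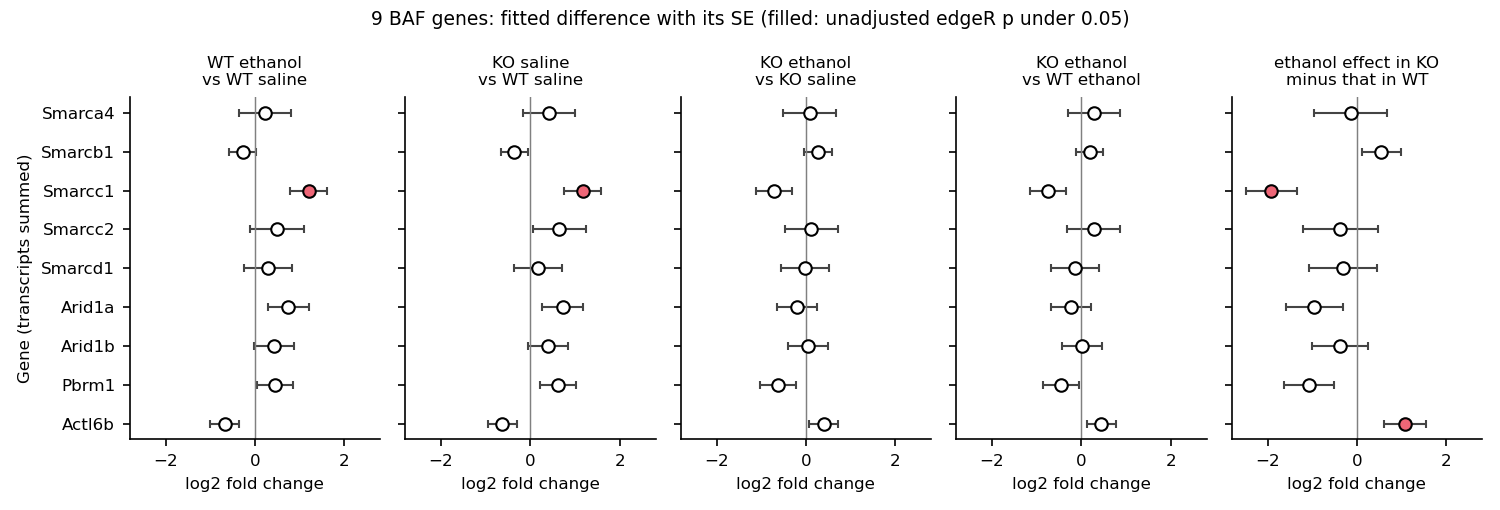
Fitted log2 fold change (x axis) with its SE (bars) of 9 BAF genes (y axis) in 5 comparisons, over all 12 libraries. Filled points have an unadjusted edgeR p under 0.05. Smarcc1 is filled at 1.20 and 1.17 against WT saline, and Smarcc1 (−1.92) and Actl6b (1.08) are filled in the interaction.

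Of the 16 member transcripts, 6 had a negative and 10 a positive log2 fold change in both comparisons with WT saline, whatever their test. The negative ones were the 4 shortest, of Actl6b, Smarcb1 and Smarca2 (1592, 1622, 1660 and 1962 bases), and a pair of long ones. Smarca4 NM_011417 (6354 bases) was at −0.08 (SE 0.63) in WT ethanol and −0.06 (SE 0.63) in p53 KO saline. Smarcc2 NM_198160 (4533 bases) was at −0.27 (SE 0.68) and −0.45 (SE 0.68), and the shorter Smarcd1 NM_031842 (3307 bases) at 0.27 (SE 0.56) and 0.14 (SE 0.55). All of these values lay within their SE of 0. Those of Smarca4 and Smarcc2 also rest on how reads shared by transcripts of a gene were divided. The part of length in the signs was not tested. The members above 1 were Smarcc2 NM_001114096 (4562 bases), Smarcc1 and the long Smarca2 transcript. All transcripts of the table showed a median of −0.23 between 1500 and 3000 bases and of 0.22 between 3000 and 5000 bases in WT ethanol, and of −0.23 and 0.26 in p53 KO saline. In the class of 5000 bases and over, where the WT ethanol median was 0.50, the long Smarca2 transcript (5921 bases) was at 3.38. Smarcc1 NM_009211 (5717 bases) was at 1.18. Smarca2 was chosen on these comparisons, so its distance from the median was set by that choice and is no test.

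**Figure D5:**
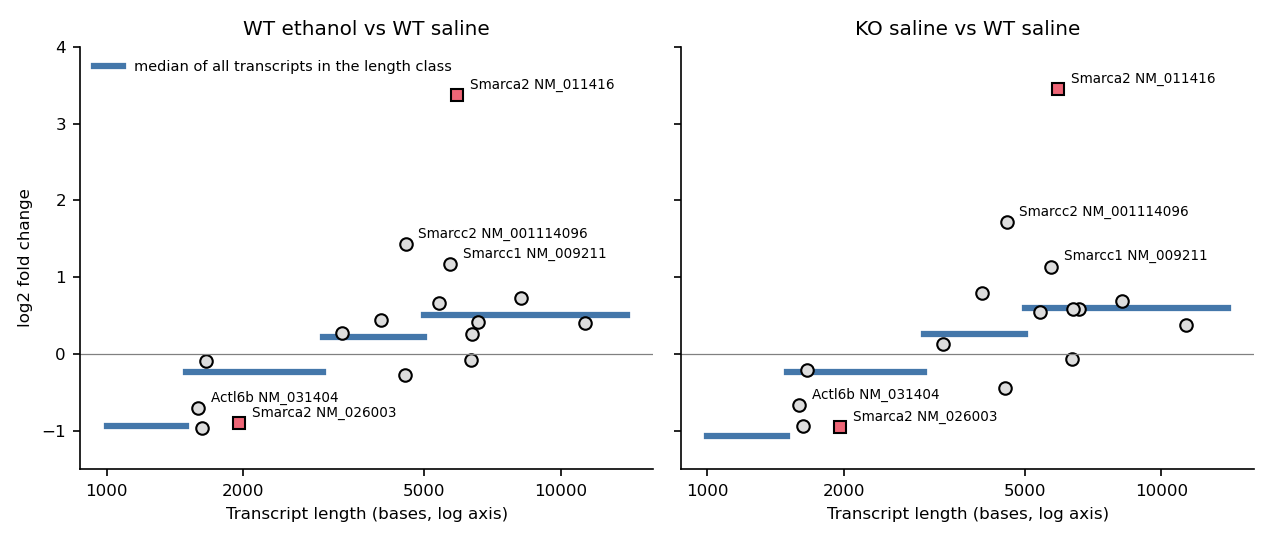
Log2 fold change (y axis) of the 16 BAF transcripts against their length in bases (x axis, log scale) for WT ethanol and p53 KO saline, each against WT saline. Squares are Smarca2, circles the other members and blue lines the median of all tested transcripts in each length class. The long Smarca2 transcript, which was chosen on these comparisons, is at 3.38 and 3.46, and the median of its class is 0.50 and 0.60.

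Ratios between subunits that replace or oppose each other were compared within libraries, which needs no library size. The log2 ratio of Actl6b to Actl6a was 2.0 to 3.81 over the 12 libraries, so the neuronal form was the higher count in every one. The log2 ratio of Smarcc2 to Smarcc1 averaged 2.07 ± 0.75 for WT saline, 1.75 ± 0.58 for WT ethanol, 1.95 ± 0.72 for p53 KO saline and 2.76 ± 0.31 for p53 KO ethanol (SD, n = 3 per group), and p53 KO ethanol lay above all WT ethanol libraries. Arid1b to Arid1a ran from −0.82 to 0.56 and Pbrm1 to Arid1a from −0.39 to 0.94. Over these 4 pairs and 4 comparisons (16 in all) an exact two-sided permutation test gave p-values from 0.1, the smallest that 3 against 3 libraries can give, to 0.7, with adjusted values of 0.64 to 0.70. The design could not reach the threshold, so these ratios are not shown to be alike.

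Per length, the authors' RPKM summed over a gene's transcripts put the neuronal subunit Actl6b highest, with a mean of 70.0 over the 12 libraries. Smarca2 (46.0), Smarcb1 (39.7) and Smarcc2 (39.3) came next, then Smarcd1 (24.9) and Smarca4 (17.3). Pbrm1 (6.96), Smarcc1 (6.90), Arid1a (6.82) and Arid1b (3.90) were lowest, and Actl6a was at 8.28. Each of these genes overlapped its neighbours in the order over the libraries. Actl6b ran from 45.8 to 96.8 RPKM and Smarca2 from 22.8 to 87.0, and at the other end Arid1a ran from 3.55 to 11.4 and Arid1b from 1.66 to 6.0.

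Of 22 further subunit symbols, 20 were in the table and all 20 were tested. None was called in WT ethanol against WT saline, where 18.3% of all genes were. In p53 KO saline 2 were higher and 2 were lower, beside 9.14% of all genes higher and 10.5% lower, so that the 4 of 20 were near the 19.6% of all genes. Gltscr1l, a subunit of the GLTSCR1-containing form, was higher by 1.34 (SE 0.46, edgeR adjusted p = 0.177), and Bcl11b, a transcription factor that joins neuronal and lymphoid BAF, was higher by 1.14 (SE 0.46, edgeR adjusted p = 0.206). Smarcd3, the Smarcd1 paralogue of heart and neuron, was lower by −1.02 (SE 0.40, edgeR adjusted p = 0.202). In p53 KO mice Smarcd3 was higher after ethanol by 0.93 (SE 0.41, edgeR adjusted p = 0.999). It was 1 of 20 called there, beside 3.15% of all genes. Its p53 KO ethanol libraries held 211, 84.9 and 90.6 CPM, the highest in replicate 1 with 0.72 M counts, and those of p53 KO saline 67.5, 52.8 and 78.8. None of the 20 genes passed an adjusted p of 0.05. The median log2 fold change of the 20 was 0.21 in WT ethanol and 0.43 in p53 KO saline.

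The 5 transcripts whose log2 CPM followed the long Smarca2 transcript most closely over the 12 libraries, among 15426, were Dync1li2 NM_001013380 (Pearson r = 0.98), Gabbr2 NM_001081141 (0.97), Adamts18 NM_172466 (0.96), Ppp1r12a NM_027892 (0.96) and Ddx23 NM_001080981 (0.96). The points share their libraries and groups, so these values are a description. Gabbr2, the GABA-B receptor subunit, was at 5.48 to 18.9 CPM in WT saline and at 68.9 to 202 elsewhere. Dync1li2, a dynein light intermediate chain, was at 35.3 to 69.6 and at 99.9 to 166 CPM. Within the complex Smarcc1 NM_009211 followed it most closely (r = 0.84), and Actl6b NM_031404 (−0.69) and the short Smarca2 transcript (−0.54) ran against it.

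The promoters of the members were searched because the study removed p53. The RefSeq promoter windows (GRCm38.p6, from 250 bases before to 50 bases after a start) held 11 windows for the 10 genes. The p53 half-site of 10 bases, named only, was found in 0 of the 11 on either strand and in 8.36% of all 32851 windows. No match says only that these letters are not in these windows. The window of the long Smarca2 transcript, chr19:26604910-26605209 on the plus strand, with no motif to capitalise, reads as follows.
Smarca2 promoter: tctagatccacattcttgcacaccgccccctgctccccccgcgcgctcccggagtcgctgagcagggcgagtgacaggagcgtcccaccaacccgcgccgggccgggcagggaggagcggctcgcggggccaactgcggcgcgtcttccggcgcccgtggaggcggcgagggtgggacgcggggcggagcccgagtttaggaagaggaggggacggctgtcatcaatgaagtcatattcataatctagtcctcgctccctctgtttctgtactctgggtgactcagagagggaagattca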

How the data were processed

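Stranded total RNA of 12 P7 cortex samples was sequenced, 3 in each of 4 groups taken from the sample labels. Per the authors' methods, reads were filtered by quality, aligned to mm10 with Bowtie2 within TopHat, and quantified over RefSeq transcripts in Partek Flow, with settings not given in the sources used here. The deposited estimated counts per transcript are not normalized, and the deposited RPKM values were normalized by the authors. Counts were rounded, filtered (filterByExpr) and tested per transcript and per gene sum in edgeR 4.0.16 (R 4.3.3, quasi-likelihood, TMM, Benjamini-Hochberg) with 4 group means. Called means an unadjusted p under 0.05. Alternatives used DESeq2 1.42.0, limma 3.58.1 on log2(RPKM + 1) and log2(RPKM + 0.1), other filters, library-size scaling, a length offset (spline of 5 degrees of freedom) and libraries left out. Only the main edgeR fit was tested on simulated data, for WT ethanol against WT saline. Exon structure came from GENCODE vM21, matched for 94.9% of transcripts. In files the transcript end is 1 past the last base. The members and lists were chosen with earlier results of these data known. Named were all members, up to 3 genes of smallest p per list, the 5 transcripts most like Smarca2 NM_011416 (mean of at least 5 CPM) and Trp53. The paper describes RNA samples taken from several mice per group, but the labels name no animals. The p-values therefore measure the spread between these samples, part of which may be technical.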

Additional observations from a re-analysis of the deposited data

Results flagged for a closer look

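The ethanol effect, as a log2 fold change in p53 KO mice minus that in WT mice, differed between the genotypes for 3 members. For the long Smarca2 transcript NM_011416 it was −4.10. All its WT ethanol libraries lay above all WT saline libraries, and all p53 KO ethanol libraries below all p53 KO saline libraries. Smarca2 was chosen on its differences from WT saline, which enter this value, so the value is a description and was not tested. For Smarcc1 the difference was −1.92 per gene and −1.90 for its transcript NM_009211, past the unadjusted level only in edgeR. For Actl6b it was 1.08 per gene and 1.10 for its transcript NM_031404, also past the unadjusted level only. These were 2 of the 9 genes tested, where 15.2% of all genes were called in the interaction. Neither call held with the length trend removed.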

How the results depend on the processing

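Members called (unadjusted p under 0.05) changed with the libraries left out and with the length trend. Without the 2 libraries whose titles open with L, calls rose over the whole table. They reached 37.3% of all genes in WT ethanol against WT saline, 39.2% in p53 KO saline against WT saline and 21.4% in the interaction. The members called there were 5, 6 and 6 per gene and 7, 8 and 6 per transcript. With the length trend removed they were 0, 0 and 0 at both levels, beside 13%, 11.9% and 7.35% of all genes. DESeq2 called 2 genes in WT ethanol, beside 3140 of all 14739. Counts without a share of all features beside them are not read as a result about the members. In the interaction 1 transcript and 1 gene were called with library size only, with at least 1 count in any library and with at least 10 counts in every library, and 1 gene with limma on either RPKM scale. Leaving out each library in turn gave 0 to 7, 0 to 7 and 1 to 8 transcripts and 1 to 5, 1 to 6 and 1 to 7 genes. The highest counts came without WT saline replicate 1, where 31.7%, 33.6% and 23.6% of all genes were called. Against WT saline 0 transcripts were called without WT saline replicate 2, WT saline replicate 3 or, in WT ethanol, WT ethanol replicate 1. For p53 KO ethanol 0 transcripts were called against either group, 0 genes against p53 KO saline and 0 to 1 against WT ethanol. The long Smarca2 transcript was at 2.45 and 2.54 with limma on log2(RPKM + 1), at 2.68 and 2.67 with the length trend removed, and at 3.04 to 3.88 and 3.13 to 3.97 with a library left out, for WT ethanol and p53 KO saline. The short one stayed at −1.30 to −0.54 and −1.35 to −0.59. The sum changed sign without WT saline replicate 3, at −0.23 to 0.50 and −0.21 to 0.53 with a library left out and at −0.52 in p53 KO saline with the length trend removed. With library size only, the median of all genes moved to 0.49 in both comparisons. The interaction of Actl6b no longer passed the unadjusted level in 13 of the alternatives. The causes were not tested. No paired analysis was possible because the labels give no replicate numbers shared between groups. Depth limits the members least covered, which had 4.75 counts (Smarca4 NM_001174079, p53 KO ethanol replicate 1) and 5.46 counts (Smarcc2 NM_001114097, WT saline replicate 2).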

Other observations

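Other chromatin remodelers were read from lists chosen with results of these data known. Of 16 CHD and NuRD genes, 5 were higher and 0 lower in WT ethanol than in WT saline, beside 9.99% of all genes higher and 8.36% lower. In p53 KO saline 7 were higher and 0 lower, beside 9.14% and 10.5% of all genes. The medians were 0.87 and 0.98 on the log2 scale. In the interaction 4 of the 16 were lower and 0 higher, beside 15.2% of all genes called. Gatad2b, a NuRD scaffold, was at 0.51, 3.31 and 2.15 CPM in WT saline, 14.8, 12.5 and 7.88 in WT ethanol and 10.97, 11.7 and 9.37 in p53 KO saline. All WT saline libraries lay below both groups, and the p53 KO ethanol libraries were at 0, 6.87 and 7.87 CPM. The values of 0.51 and 0 are at the floor, in the libraries of 1.95 M and 0.72 M counts. Mta3, another NuRD subunit, was at 7.69 ± 4.04, 22.0 ± 3.37 and 19.8 ± 3.67 CPM (SD, n = 3 per group) in the same order, and Chd1 at 11.6 ± 1.84, 25.6 ± 4.52 and 24.1 ± 5.79. No gene of the list passed an edgeR adjusted p of 0.05 in any of the 5 comparisons.

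Of 9 ISWI genes, 1 was higher in WT ethanol and 2 were higher in p53 KO saline, and 0 were lower in either, beside 9.99% and 9.14% of all genes higher. Rsf1 was the first (log2 fold change 0.79, edgeR adjusted p = 0.255), and in p53 KO saline Rsf1 and Baz2b were higher by 0.89 and 1.42. In the interaction 3 of the 9 were lower (Rsf1, Smarca1 and Smarca5) and 0 higher, beside 15.2% of all genes called. Smarca5 was also lower in p53 KO ethanol than in p53 KO saline, where 3.15% of all genes were called. Of 8 INO80 and SRCAP genes, 0 were called in any of the 5 comparisons, in which 3.15% to 19.6% of all genes were. All 3 lists share the WT saline libraries described in the report. Fold changes against those libraries moved with transcript length, and their red blood cell genes were higher than in WT ethanol and p53 KO saline.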
